A study of Mus musculus with 17 samples.

Results

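The genes described here are 10 genes of the antioxidant defense: Sod1, Sod2, Sod3, Cat, Gpx1, Gpx3, Hmox1, Nqo1, Txnrd1 and Gclc. They were picked by gene symbol from a table of 35285 genes, and each symbol matched 1 row. All 10 passed the filter on low values, which asked for 3 libraries with an FPKM of 1 or more in a comparison. Total RNA of the cochlea from 17 wild-type male C57BL/6J mice, 8 weeks old, was sequenced to ask what noise exposure (NE) does to the cochlea and what brimonidine, which activates α2-adrenergic receptors, does against it. The 3 control mice had injections of saline and no noise. The 7 mice of the NE group were exposed for 2 h to noise of 8 to 16 kHz at 100 dB SPL, which the methods call octave-band and the labels broadband. The 7 mice of the brimonidine group were exposed alike and were injected intraperitoneally 3 times with brimonidine at 1 mg/kg, on the day before, the day of and the day after the noise. RNA was taken 2 days after exposure, with 1 mouse per library. All groups share the C57BL/6J background, whose Cdh23 variant is a known cause of age-related hearing loss, and the labels give the tissue as cochlear cells and the cell type as interstitial cells.

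Superoxide dismutases turn superoxide into hydrogen peroxide, and catalase and the glutathione peroxidases then break the peroxide down to water. Glutathione supplies the electrons for the glutathione peroxidases, and the thioredoxin system is a further source of electrons in the antioxidant defense. The transcription factor NRF2 switches on many of these genes by binding antioxidant response elements in their promoters. In the cochlea, loud sound is known to raise reactive oxygen species in hair cells, supporting cells and the stria vascularis, and antioxidant enzymes are a common subject of work on noise-induced hearing loss.

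FPKM, the unit deposited, is the number of fragments counted on a gene scaled to the length of its exons and to the total counted in the library, so levels may be compared between genes. The total counted was 14457733 to 16080796 fragments in the control libraries, 15769236 to 18288854 in the NE group and 16624437 to 18224926 in the brimonidine group. Control replicate 2 stood apart from all other libraries. Its median correlation with the other 16 was 0.815 on the log scale, against 0.954 and 0.944 for control replicates 1 and 3 and 0.969 to 0.981 for the 14 exposed libraries. It was the highest or lowest of the 17 for 64.4% of 16416 genes, with NE replicate 6 next at 32.7%. Differences of named genes from the control group are therefore given with and without control replicate 2. The 11 neutrophil markers summed to 9935 FPKM in control replicate 2, 43992 and 46348 in the other controls and 40003 to 65335 in the exposed libraries. The 8 hair cell markers summed to only 14.1 to 31.0 FPKM over all libraries, and 3 of them, Slc17a8, Slc26a5 and Cdh23, had a mean under 1. In such bulk RNA, fewer cells of a type and less RNA per cell cannot be told apart.

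Promoters are shown for the members whose upstream sequence held the core of the antioxidant response element, TGACNNNGC, on either strand. RefSeq (GRCm38.p6) gave 9 promoters for 7 of the 10 members, Cat, Nqo1, Gpx1, Gpx3, Sod1, Sod2 and Txnrd1 (3 starts), and no entry matched Sod3, Hmox1 or Gclc. In the 250 bases before the start, 2 of the 9 held the core, and 3338 of 32851 promoters in the table (10.2%) held it in a window of the same length. Both matches lie on the strand opposite to the gene, so they read as GCNNNGTCA, in capitals, 92 bases before the start in Txnrd1 and 56 bases before it in Sod1. The Txnrd1 window lies inside the annotated gene, upstream of an internal start. Nqo1, a textbook target of NRF2, is shown beside them as a window without these letters, which says nothing about binding elsewhere.
Sod1 promoter, chr16:90220512-90220761, plus strand: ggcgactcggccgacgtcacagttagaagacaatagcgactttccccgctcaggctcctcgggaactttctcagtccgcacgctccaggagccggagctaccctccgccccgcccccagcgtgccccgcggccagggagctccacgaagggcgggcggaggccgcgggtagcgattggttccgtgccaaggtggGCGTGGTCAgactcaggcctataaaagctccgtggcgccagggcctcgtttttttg
Txnrd1 promoter, chr10:82858956-82859205, plus strand: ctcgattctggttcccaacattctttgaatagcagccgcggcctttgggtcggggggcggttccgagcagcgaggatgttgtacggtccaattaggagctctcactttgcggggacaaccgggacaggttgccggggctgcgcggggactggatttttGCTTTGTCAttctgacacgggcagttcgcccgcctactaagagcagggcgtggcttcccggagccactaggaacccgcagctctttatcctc
Nqo1 promoter, chr8:107403206-107403455, minus strand: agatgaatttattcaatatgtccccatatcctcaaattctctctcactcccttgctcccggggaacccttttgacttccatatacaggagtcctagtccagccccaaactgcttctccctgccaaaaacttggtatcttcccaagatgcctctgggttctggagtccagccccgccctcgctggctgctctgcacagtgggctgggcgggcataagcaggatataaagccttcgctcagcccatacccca

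The 10 genes differed in level by far more than any group differed from another. By mean FPKM over the 17 libraries, Gpx1 stood at 557 ± 102 (SD), followed by Gpx3 at 213 ± 33.2, Sod1 at 156 ± 14.8, Hmox1 at 61.1 ± 10.7, Cat at 31.5 ± 4.65, Sod2 at 24.7 ± 2.95, Txnrd1 at 19.2 ± 1.40, Gclc at 18.3 ± 1.51, Sod3 at 11.9 ± 3.00 and Nqo1 at 6.46 ± 1.14. Gpx1 was above Gpx3 in 17 of 17 libraries and Sod1 was above Hmox1 in 17 of 17, with no overlap of their ranges. Cat exceeded Sod2 in 14 of 17 libraries and Txnrd1 exceeded Gclc in 14 of 17, so these neighbors overlapped. The fragments behind a value ran from 7564 to 18702 per library for Gpx1 and from 112 to 207 for Nqo1, so Nqo1 is the least precisely counted member. Over the 14 exposed libraries the coefficient of variation was smallest for Txnrd1 (4.85%) and largest for Nqo1 (17.8%).

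**Figure D1:**
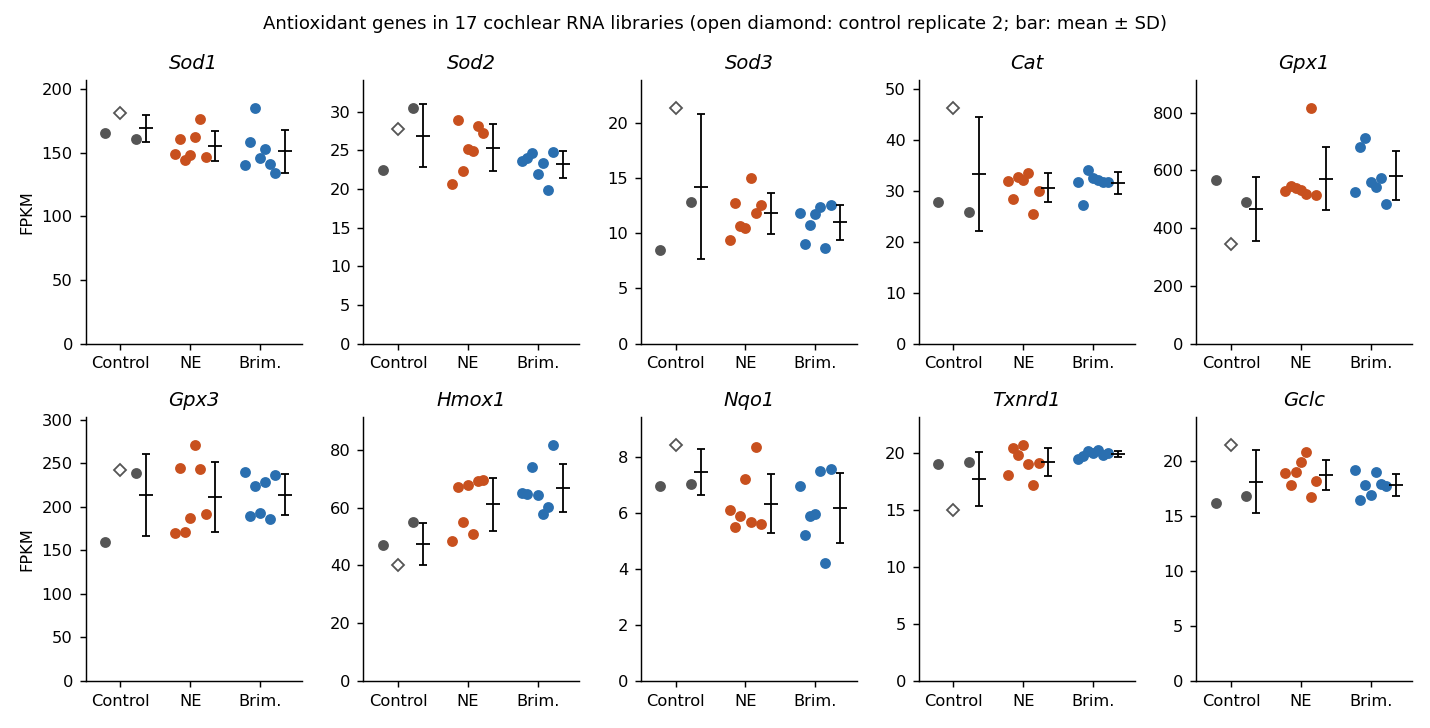
FPKM of each of the 10 antioxidant genes (vertical axis, from 0) in every library of the control, NE and brimonidine (Brim.) groups. Points are libraries, the open diamond is control replicate 2 and the bar is the group mean ± SD. The groups overlap for all members except Hmox1 and Txnrd1, whose 7 brimonidine libraries all lie above the 3 controls.

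None of the 10 antioxidant genes passed the test between the NE and the control group, where 14.1% of 15950 genes did (2.12% as higher), nor between the brimonidine and the NE group, where 0.00637% of 15707 genes did. Between the brimonidine and the control group 1 member passed, Hmox1, which was higher, while 15.8% of 15947 genes passed and 3.47% passed as higher. The test was limma on log2(FPKM + 1) with a Benjamini-Hochberg adjusted p under 0.05 over all genes tested. In this limma fit no member reached the study's limits for differential expression, which add a fold change of at least 2 (5.76%, 0% and 5.73% of genes tested did). The study applied those limits with DESeq2, a count model, and reported genes past them in NE against control and in brimonidine against NE. The unadjusted 95% interval of the fold lay within 2-fold for all 10 members in each comparison, spanning 0.633 to 1.68 in NE against control, 0.809 to 1.27 in brimonidine against NE, and 0.596 to 1.70 in brimonidine against control. The median log2 difference of the members was -0.04, -0.0019 and -0.02, beside -0.04, 0.01 and -0.03 over all genes tested. At an unadjusted p under 0.05, 1 member passed in NE against control (Hmox1), none in brimonidine against NE and 1 in brimonidine against control, where the background was 32.9%, 5.77% and 35.6%. Both comparisons with control use the same 3 controls.

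**Figure D2:**
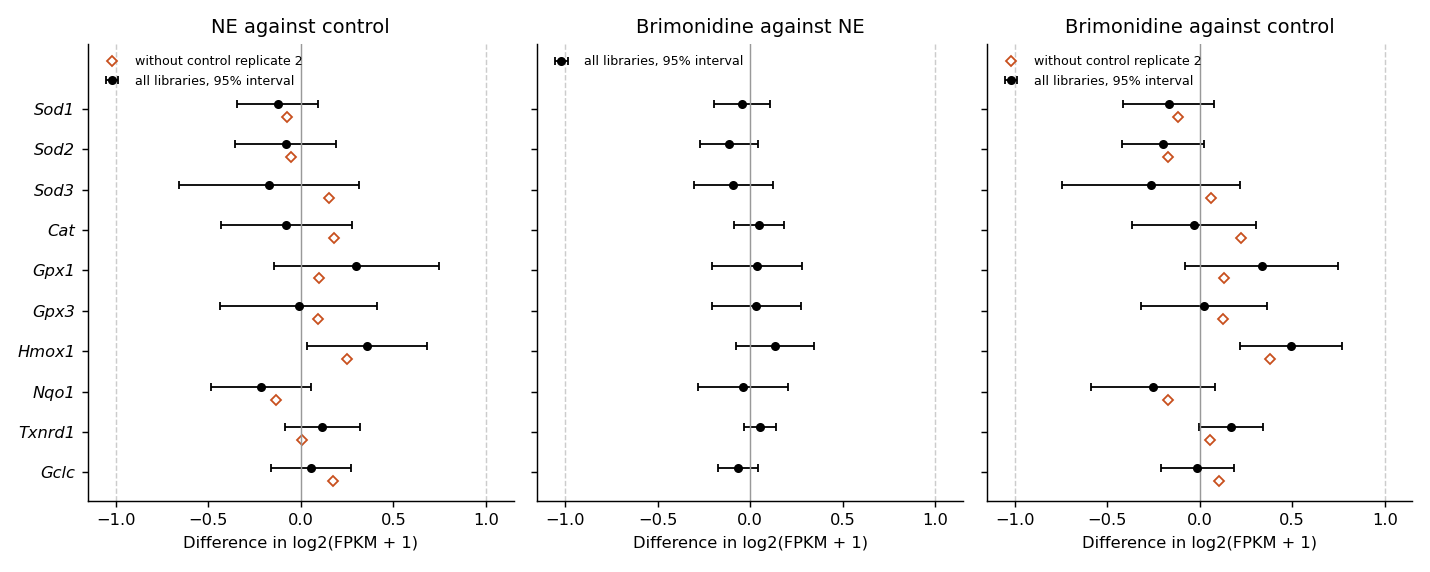
Difference in mean log2(FPKM + 1) of the 10 antioxidant genes (horizontal axis, log2 scale) in the 3 comparisons, with unadjusted 95% limma intervals (bars). Open diamonds are the differences without control replicate 2, and dashed lines mark a 2-fold change. Every interval lies inside the dashed lines, and Hmox1 in brimonidine against control lies farthest from 0, at 0.49.

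Hmox1 (heme oxygenase 1, ENSMUSG00000005413, chr8:75093621-75100589, plus strand) encodes the inducible enzyme that cleaves heme into biliverdin, iron and carbon monoxide. It stood at 47.0, 40.2 and 54.9 FPKM in control replicates 1 to 3. In NE replicates 1 to 7 it was 48.4, 67.2, 55.1, 67.7, 51.0, 69.2 and 69.4 FPKM. In brimonidine replicates 1 to 7 it was 65.2, 64.9, 74.1, 64.3, 57.8, 60.1 and 81.6 FPKM. The brimonidine libraries all lay above the controls, while the NE libraries were split, with 5 of 7 above the highest control and the other two within the controls' range. Hmox1 was higher in the brimonidine group than in the control group by 0.49 ± 0.12 (SE) on the log2 scale, a fold of 1.41 with a 95% interval of 1.16 to 1.70 (limma adjusted p = 0.0248, exact permutation p = 0.0083, two-sided, the smallest that 120 regroupings can give). Groups that did not overlap were found for 2 of the 10 members in this comparison, Hmox1 and Txnrd1, both higher, and for 19.4% of all genes tested (5.07% higher). No member had groups apart in NE against control, where 18.3% of genes did (3.24% higher), or in brimonidine against NE, where 0.14% did. In NE against control the difference was 0.36 ± 0.15 (limma adjusted p = 0.119, exact permutation p = 0.0667). In brimonidine against NE it was 0.13 ± 0.10, with a fold interval of 0.947 to 1.27 (limma adjusted p = 0.901, exact permutation p = 0.234), so a difference between the exposed groups was not detected.

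The Hmox1 call rested on control replicate 2, the lowest of the 17 libraries. Without it the difference in brimonidine against control was 0.38 (limma adjusted p = 0.0878) and in NE against control 0.25 (limma adjusted p = 0.412). Macrophages and microglia are rich in heme oxygenase 1, and the sum of 10 macrophage markers was 270, 314 and 301 FPKM in the controls, 309 to 361 in the NE group and 306 to 380 in the brimonidine group, with Vsig4 and Timd4 under 1 on average. On the log2 scale, Hmox1 and the mean level of these markers had r = 0.42 and rho = 0.32 over the 14 exposed libraries (permutation p = 0.135 and 0.268, adjusted over 40 relations 0.387 and 0.669), and r was 0.21 without the 2 libraries farthest out. Within the groups r was -0.32 for NE libraries and 0.77 for brimonidine libraries. The part of macrophages in the difference was not tested.

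The 3 superoxide dismutases showed no difference past the threshold with all libraries in the first fit. With array weights, Sod2 passed as lower in brimonidine against control, by -0.35 (limma adjusted p = 0.00357), where 43.4% of all genes passed. Without control replicate 1, Sod2 and Sod3 passed as lower in brimonidine against control, by -0.32 and -0.56 (limma adjusted p = 0.0322 and 0.0468), in a fit where 30.1% of all genes passed. Sod1, the cytosolic copper-zinc enzyme (ENSMUSG00000022982, chr16:90220742-90226322, plus strand), whose promoter is printed above, was 166, 181 and 161 FPKM in the controls. In the NE group it ran from 144 through a median of 149 to 176 FPKM, and in the brimonidine group from 134 through 146 to 185 FPKM. The lowest control lay above 4 of 7 NE libraries and above 6 of 7 brimonidine libraries, the other 3 NE libraries lay within the controls' range, and the other brimonidine library lay above it. The differences were -0.12 ± 0.10 in NE against control (limma adjusted p = 0.395), -0.04 ± 0.07 in brimonidine against NE (limma adjusted p = 0.970) and -0.17 ± 0.11 in brimonidine against control (limma adjusted p = 0.300). Without control replicate 2 the differences from control were -0.07 and -0.12.

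Sod2, the manganese enzyme of the mitochondrial matrix (ENSMUSG00000006818, chr17:13007839-13018119, plus strand), was 22.5, 27.7 and 30.5 FPKM in the controls. It ran from 20.6 through 25.2 to 28.9 FPKM in the NE group and from 19.9 through 23.7 to 24.8 FPKM in the brimonidine group. The brimonidine libraries lay in the lower part of the NE range and, in replicate 6, below it, and both groups overlapped the controls. The difference was -0.08 ± 0.12 in NE against control (limma adjusted p = 0.672), -0.12 ± 0.07 in brimonidine against NE (limma adjusted p = 0.898) and -0.20 ± 0.10 in brimonidine against control (limma adjusted p = 0.181). Without control replicate 2 the NE and brimonidine groups stood at -0.05 and -0.17. Sod2 had r = -0.71 and rho = -0.72 with the mean log2 level of 9 erythroid markers (permutation p = 0.00452 and 0.00483, adjusted over 40 relations 0.0603 and 0.0644), with r = -0.91 within the NE group and -0.24 within the brimonidine group, and it did not pass.

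Sod3, the dismutase secreted to the extracellular matrix (ENSMUSG00000072941, chr5:52363791-52371418, plus strand), was 8.44, 21.4 and 12.8 FPKM in the controls. It ran from 9.38 through 11.8 to 15.0 FPKM in the NE group and from 8.67 through 11.8 to 12.5 FPKM in the brimonidine group. The controls spanned the whole range of the exposed libraries, and control replicate 2 was the highest of the 17. The difference in NE against control was -0.17 ± 0.22 with all controls and 0.15 without control replicate 2, and in brimonidine against control -0.26 ± 0.22 and 0.06, so its sign was set by that library (limma adjusted p = 0.611, 0.692, 0.405 and 0.862). In brimonidine against NE it was -0.09 ± 0.10 (limma adjusted p = 0.942).

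Catalase and the glutathione peroxidases, which remove peroxide, also overlapped between groups. Cat, the peroxisomal catalase (ENSMUSG00000027187, chr2:103453849-103485160, minus strand), was 27.8, 46.3 and 25.9 FPKM in the controls, 25.4 through 32.0 to 33.6 FPKM in the NE group and 27.2 through 31.8 to 34.2 FPKM in the brimonidine group. Control replicates 1 and 3 lay at the low end of the exposed libraries and control replicate 2 far above them. The difference in NE against control was therefore -0.08 ± 0.16 with all controls and 0.18 without control replicate 2, and in brimonidine against control -0.03 ± 0.15 and 0.22 (limma adjusted p = 0.761, 0.368, 0.904 and 0.113). With all libraries and array weights, Cat passed as higher by 0.24 and 0.26 (limma adjusted p = 0.0208 and 0.00656), where 37.4% and 43.4% of all genes passed. Between the exposed groups it was 0.05 ± 0.06 (limma adjusted p = 0.962).

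Gpx1, the most abundant member and the main cytosolic glutathione peroxidase (ENSMUSG00000063856, chr9:108338903-108340343, plus strand), was 566, 346 and 490 FPKM in the controls. In NE replicates 1 to 7 it was 530, 546, 538, 532, 520, 817 and 514 FPKM. In brimonidine replicates 1 to 7 it was 525, 682, 712, 558, 541, 575 and 484 FPKM. Most exposed libraries lay between the 2 higher controls or close to them, and NE replicate 6 and brimonidine replicates 2 and 3 lay above the rest. The difference was 0.30 ± 0.20 in NE against control (limma adjusted p = 0.317), 0.04 ± 0.11 in brimonidine against NE (limma adjusted p = 0.986) and 0.34 ± 0.19 in brimonidine against control (limma adjusted p = 0.221). Without control replicate 2, the lowest of the 17, the differences from control were 0.10 and 0.13, and without NE replicate 6 the NE group differed from control by 0.21.

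The 3 exposed libraries with the highest Gpx1 were also those with the most neutrophil RNA. The neutrophil sum was 65335 FPKM in NE replicate 6, 58417 in brimonidine replicate 2 and 51119 in brimonidine replicate 3, the highest of the 17, and 9935 in control replicate 2, the lowest. Over the 14 exposed libraries Gpx1 and the mean log2 level of these markers had r = 0.87 and rho = 0.54 (permutation p = 0.00045 and 0.0495), and adjusted over 40 relations Pearson's r passed at p = 0.018 while rho did not at p = 0.283. Without NE replicate 6 and brimonidine replicate 2 r was 0.65, so the relation rests in part on the libraries with the most neutrophil RNA. Within groups r was 0.85 for NE libraries and 0.90 for brimonidine libraries. The NE value rests largely on NE replicate 6, at 817 FPKM of Gpx1, since the other NE libraries ran only from 514 to 546.

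Gpx3, the secreted plasma-type peroxidase (ENSMUSG00000018339, chr11:54902453-54910377, plus strand), was 160, 242 and 238 FPKM in the controls, 170 through 191 to 271 FPKM in the NE group and 187 through 224 to 240 FPKM in the brimonidine group. The brimonidine libraries lay inside the NE range, and the lowest of the 17 was control replicate 1. The difference was -0.01 ± 0.19 in NE against control (limma adjusted p = 0.973), 0.03 ± 0.11 in brimonidine against NE (limma adjusted p = 0.987) and 0.02 ± 0.15 in brimonidine against control (limma adjusted p = 0.933). Leaving out control replicate 2 gave 0.09 for NE and 0.13 for brimonidine against control. The NE difference lay so near 0 that leaving out any of 6 libraries (control replicates 2 and 3, NE replicates 1, 3, 4 and 7) turned its sign. Gpx3 and Sod3, both secreted enzymes, varied together over the 14 exposed libraries, with r = 0.75 and rho = 0.81 (permutation p = 0.00173 and 0.00077, adjusted over 45 pairs of members 0.0556 and 0.0346). The correlation was 0.85 within the NE group, 0.77 within the brimonidine group and 0.77 without the 2 libraries farthest out. Sod3 also had r = 0.69 and rho = 0.72 with the mean log2 level of 8 cochlear epithelium and supporting cell markers (adjusted over 40 relations 0.0632 and 0.0644), and r = -0.64 and rho = -0.76 with that of the erythroid markers (adjusted 0.116 and 0.0644). Of the 40 relations of members with marker lists, 1 passed by r, that of Gpx1 with the neutrophil markers, and none passed by rho. Of the 45 pairs of members, Gpx3 with Sod3 was the only pair to pass by rho, and none passed by r.

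**Figure D3:**
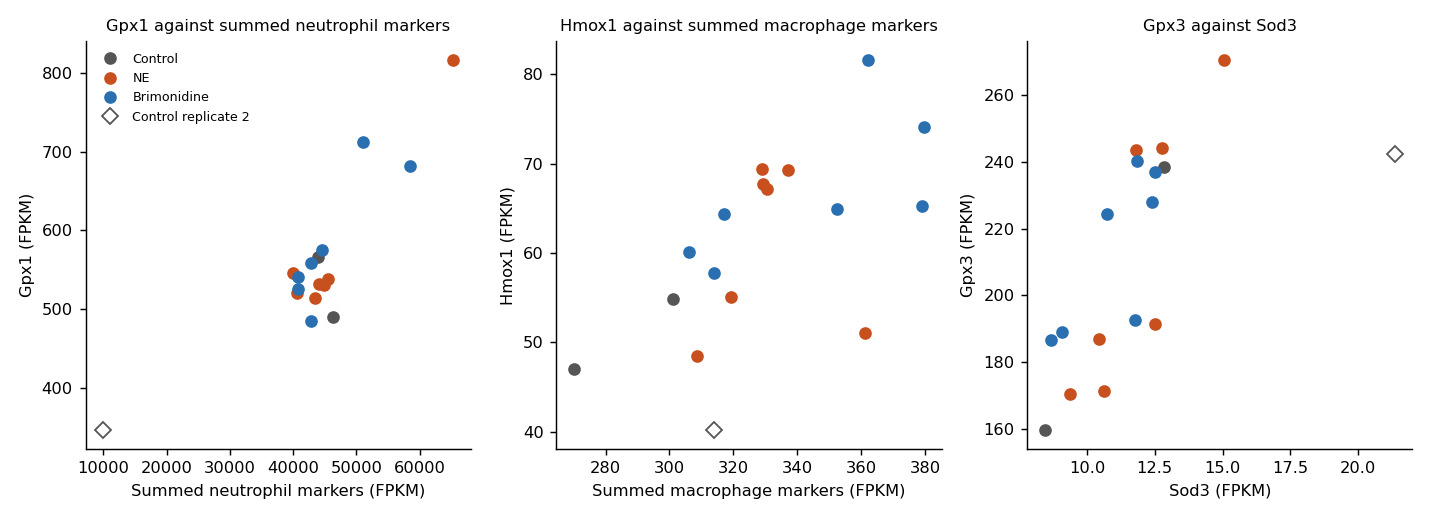
Level of Gpx1 against the summed neutrophil markers (FPKM), of Hmox1 against the summed macrophage markers (FPKM), and of Gpx3 against Sod3 (FPKM). Each point is a library, colored by group, and the open diamond is control replicate 2. Gpx1 is highest in NE replicate 6, at 817 FPKM, where the neutrophil sum is 65335 FPKM, and both are lowest in control replicate 2.

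Txnrd1, the cytosolic thioredoxin reductase, a selenoprotein (ENSMUSG00000020250, chr10:82833951-82897712, plus strand), was 19.0, 14.9 and 19.2 FPKM in the controls. In NE replicates 1 to 7 it was 18.1, 20.4, 19.8, 20.6, 19.0, 17.2 and 19.1 FPKM. In brimonidine replicates 1 to 7 it was 19.5, 19.8, 20.2, 20.0, 20.2, 19.8 and 20.0 FPKM. The brimonidine libraries lay closely together just above control replicates 1 and 3, and the NE libraries spread to both sides of them. The difference in brimonidine against control was 0.17 ± 0.08 (limma adjusted p = 0.147, exact permutation p = 0.0083), and 0.06 without control replicate 2 (limma adjusted p = 0.501). In NE against control it was 0.12 ± 0.09 (limma adjusted p = 0.397), and 0.0046 without control replicate 2, and in brimonidine against NE 0.05 ± 0.04 (limma adjusted p = 0.901). The coefficient of variation in the brimonidine group was 1.31%, less than the 2.00% that counting error alone gives at this depth, and it was 6.52% in the NE group. The Txnrd1 and Sod1 promoters printed above hold the element core, and neither gene passed the test in any comparison.

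Gclc, the catalytic subunit of glutamate-cysteine ligase and the limiting step of glutathione synthesis (ENSMUSG00000032350, chr9:77754535-77794485, plus strand), was 16.2, 21.4 and 16.8 FPKM in the controls, 16.7 through 18.9 to 20.8 FPKM in the NE group and 16.4 through 17.8 to 19.2 FPKM in the brimonidine group. Every exposed library lay between the lowest and the highest control. The difference was 0.05 ± 0.10 in NE against control (limma adjusted p = 0.728), -0.07 ± 0.05 in brimonidine against NE (limma adjusted p = 0.901) and -0.01 ± 0.09 in brimonidine against control (limma adjusted p = 0.933). Control replicate 2 was the highest of the 17, and without it the differences from control were 0.17 and 0.11 (limma adjusted p = 0.266 and 0.359). With all libraries and array weights, Gclc passed as higher in NE against control, by 0.17 (limma adjusted p = 0.0318), where 37.4% of all genes passed. Gclc had r = -0.70 and rho = -0.59 with the mean log2 level of the neutrophil markers over the exposed libraries (permutation p = 0.00431 and 0.0285, adjusted over 40 relations 0.0603 and 0.19), and r = -0.48 without NE replicate 6 and brimonidine replicate 2.

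Nqo1, the quinone reductase that is a standard readout of NRF2 (ENSMUSG00000003849, chr8:107388225-107403206, minus strand), was 6.95, 8.40 and 7.01 FPKM in the controls, 5.49 through 5.89 to 8.33 FPKM in the NE group and 4.20 through 5.95 to 7.55 FPKM in the brimonidine group. In each exposed group 5 of 7 libraries lay below the lowest control and the other two reached into the controls' range. The difference was -0.22 ± 0.12 in NE against control (limma adjusted p = 0.243), -0.04 ± 0.11 in brimonidine against NE (limma adjusted p = 0.984) and -0.25 ± 0.15 in brimonidine against control (limma adjusted p = 0.249). With control replicate 2, the highest of the 17, left out they were -0.14 and -0.17 against control. The 4 members often used to read NRF2 activity are Hmox1, Nqo1, Txnrd1 and Gclc. Their differences from control ran from -0.22 to 0.36 in the NE group and from -0.25 to 0.49 in the brimonidine group. Without control replicate 2 they ran from -0.14 to 0.25 and from -0.17 to 0.38. Of these, only Hmox1 in brimonidine against control passed in the first fit, and NRF2 activity was not tested.

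Control replicate 2 was the highest of the 17 libraries for 4 members (Sod3, Cat, Nqo1 and Gclc) and the lowest for 3 (Gpx1, Hmox1 and Txnrd1), which is 7 of 10 where all genes gave 64.4%. It is the library with 9935 FPKM of neutrophil markers and with an erythroid sum of 10886 FPKM, against 1786 to 6073 in the others. Its sum of cerebellar and hindbrain neuron markers was 731 FPKM, against 270 and 281 in the other controls and 31.2 to 106 in the exposed libraries. It was also the highest library for the cochlear epithelium and supporting cell markers (1337 FPKM, the others 539 to 901), stria vascularis (471, the others 125 to 209), Schwann cells (300, the others 93.5 to 173) and spiral ganglion neurons (374, the others 41.5 to 138). The part of these cells in the members' values was not tested.

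The single gene most like each member over the 14 exposed libraries was picked as the highest rho among 14672 genes, and such picking favors high values, so these are descriptions with no test. They were Cox5b for Sod1 (rho = 0.96), Zc3h12a for Sod2 (0.95), Fads2 for Sod3 (0.95), Klhl25 for Cat (0.87), Gm14005 for Gpx1 (0.93), Mgp for Gpx3 (0.90), Ctsa for Hmox1 (0.87), AC160337.1 for Nqo1 (0.85), Zfp119a for Txnrd1 (0.90) and Gm45151 for Gclc (0.89).

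Around the members, 94 other redox genes in 9 lists were read in the same fits, and 86 passed the filter in each comparison. In NE against control 5 of the 86 fell and none rose (5.81%, beside 14.1% of all genes). Other fits gave fewer or more. Fewer passed, for example, with equal totals (3, beside 10.1% of all genes), with the replicate block (0, beside 0%) and without control replicate 2 (1, beside 6.74%). Without control replicate 3, 2 were higher and 5 lower, while fewer of all genes passed (311 and 1505). In the fits listed next more of the redox genes passed, as did more of all genes. They were 11 higher and 7 lower with all 17 libraries in 1 model (all genes 1325 and 3127), 13 and 14 with array weights (2288 and 3682), 13 and 13 without control replicate 1 (1229 and 2538), and 2 and 4 with median-ratio scaling (731 and 1654), beside 338 and 1909 of all genes in the first fit. In brimonidine against NE none passed, and 7 had an unadjusted p under 0.05, the smallest that of Gstp1, a glutathione S-transferase named after its value was seen, with a log2 difference of -0.24 (limma adjusted p = 0.521). In brimonidine against control 7 fell and 1 rose (9.30%, beside 15.8% of all genes). There they were 14 higher and 8 lower in 1 model (all genes 1609 and 2969), 18 and 18 with array weights (2981 and 3935), and 16 and 14 without control replicate 1 (1781 and 2912), beside 553 and 1965 of all genes in the first fit. The lists of superoxide and peroxide removal (12 tested), NRF2 regulators (9), NADPH supply (7) and heme and iron handling (9) had no gene past the threshold in any comparison with all libraries in the first fit. Under at least 1 alternative, 13 of their 37 genes passed in NE against control, 17 in brimonidine against control and none in brimonidine against NE. The share of all genes passing under at least 1 alternative was not computed. With array weights alone it was 37.4% in NE against control and 43.4% in brimonidine against control. Prdx5, a peroxiredoxin, and Gpx4, the peroxidase of lipid peroxides, were the most abundant of the first list, with means of 208 and 101 FPKM and differences of 0.35 and -0.16 in NE against control (limma adjusted p = 0.354 and 0.394), or -0.06 and -0.13 without control replicate 2. Nfe2l2, which encodes NRF2 itself, had a mean of 39.6 FPKM and differed by 0.10 in NE against control (limma adjusted p = 0.544), by -0.05 there without control replicate 2, and by 0.05 in brimonidine against NE (limma adjusted p = 0.930).

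Among the genes that passed, the largest difference was in Mt3, the metallothionein of brain that binds zinc and copper. It was 15.6, 28.5 and 15.2 FPKM in the controls, 6.25 through 7.24 to 8.21 FPKM in the NE group and 5.99 through 7.77 to 8.99 FPKM in the brimonidine group. Every control lay above every exposed library. Mt3 fell by 1.28 on the log2 scale in NE against control (SE 0.17, limma adjusted p = 0.000786) and by 1.23 in brimonidine against control (SE 0.19, limma adjusted p = 0.00203), and without control replicate 2 by 0.99 and 0.95 (limma adjusted p = 0.000173 and 0.00231). The sum of the central glia markers moved in the same direction, at 162, 325 and 198 FPKM in the controls and 34.0 to 71.5 in the exposed libraries. So did the cerebellar and hindbrain neuron sum given above. Within the central glia list, Gfap (lowest control 9.05, highest NE library 11.0 FPKM) and Aqp4 (28.9 and 36.9) overlapped between the groups. The other markers of that list, led by Aldoc, were higher in every control. The part of these cells in the fall of Mt3 was not tested.

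Gstm5, a glutathione S-transferase, was 10.2, 14.8 and 10.4 FPKM in the controls, 4.99 to 8.21 in the NE group and 5.25 to 7.85 in the brimonidine group. It fell by 0.74 in NE against control (limma adjusted p = 0.0131) and by 0.73 in brimonidine against control (limma adjusted p = 0.00596), with no overlap of the exposed groups and the controls. Gss, glutathione synthetase, fell by 0.51 and 0.47 (limma adjusted p = 0.0134 and 0.0144). Glrx2, the mitochondrial glutaredoxin, fell by 0.42 and 0.37 (limma adjusted p = 0.0244 and 0.0355), and Srxn1, the sulfiredoxin that restores peroxiredoxins, by 0.57 and 0.50 (limma adjusted p = 0.0392 and 0.0424). Cbr1, a carbonyl reductase, and Oplah, which opens 5-oxoproline in the glutathione cycle, passed in the first fit only in brimonidine against control. There they fell by 0.58 and 0.50 (limma adjusted p = 0.0273 and 0.0433). In NE against control they stood at -0.50 each (limma adjusted p = 0.0515 and 0.0637). Both passed there under at least 1 alternative (smallest limma adjusted p = 0.0027 and 0.012). Without control replicate 2 the differences in NE and brimonidine against control were -0.58 and -0.56 for Gstm5, -0.37 and -0.33 for Gss, -0.28 and -0.22 for Glrx2, -0.32 and -0.25 for Srxn1, -0.24 and -0.32 for Cbr1 and -0.27 and -0.27 for Oplah. The summed central glia and hindbrain neuron markers, higher in all 3 controls, moved with these genes too. Gfap and Aqp4 overlapped between the groups, as given above, and the part of these cells was not tested.

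Xdh, xanthine dehydrogenase, which can produce superoxide, was the gene that rose. It was 59.6, 21.2 and 55.6 FPKM in the controls, 59.1 through 73.4 to 83.8 FPKM in the NE group and 69.4 through 78.8 to 85.9 FPKM in the brimonidine group. All brimonidine libraries lay above the controls, and control replicate 2 lay far below the other libraries. Xdh rose by 0.90 ± 0.25 in brimonidine against control (limma adjusted p = 0.0372) and by 0.44 without control replicate 2 (limma adjusted p = 0.0076). For Xdh in NE against control the difference was 0.80 (limma adjusted p = 0.0662), or 0.34 without control replicate 2, and in brimonidine against NE it was 0.10 (limma adjusted p = 0.899). Mpo and Cyba, oxidant enzymes of phagocytes and the most abundant genes of that list, were also lowest in control replicate 2, at 96.4 and 121 FPKM. Neither passed, with differences from control of 0.78 and 0.83 for Mpo and 0.51 and 0.49 for Cyba, or 0.18, 0.23, 0.04 and 0.02 without control replicate 2. Nnt, the mitochondrial transhydrogenase that is deleted in part in C57BL/6J mice, had a mean of 0.108 FPKM and was not tested, and is named after its value was seen.

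Without control replicate 2, 1 of the 86 redox genes passed in NE against control (Mt3), where 6.74% of all genes did, and 5 in brimonidine against control (Mt3, Gstm5, Gss, Cbr1 and Xdh), where 9.48% did. The redox genes that had passed with all controls kept their sign.

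**Figure D4:**
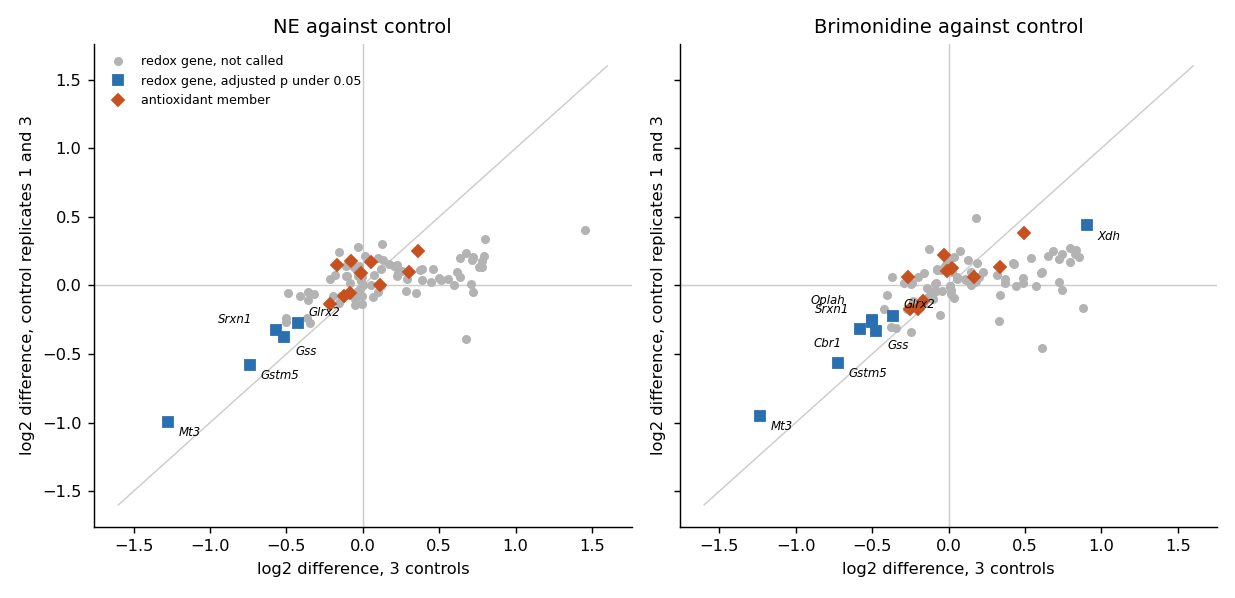
Log2 difference with all 3 controls (horizontal axis) against the difference without control replicate 2 (vertical axis) for the redox genes tested (grey circles, or blue squares with an adjusted p under 0.05 with all controls) and the 10 antioxidant members (orange diamonds). The diagonal line marks equal values. Mt3 lies at -1.28 and -0.99 in NE against control, and Xdh at 0.90 and 0.44 in brimonidine against control.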

How the data were processed

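Total RNA from the cochleae of 17 mice, 1 per library, was sequenced by the authors from TruSeq stranded mRNA libraries, and their deposited processing notes name Trimmomatic, HISAT2, HTSeq and Cufflinks and the build mm10, with versions and annotation release not given in the sources used here. The deposited table holds FPKM values for 35285 genes, scaled by the authors only by exon length and by library total. Multiplying by the exon length in GENCODE gave whole fragments (tolerance 0.02, or 1e-05 of the value) for 32425 of 35029 genes above 0, from which the library totals come. For 2603 more, Sod1 and Sod2 among them, the length was itself solved so that the fragments came out whole, so their fragments are no check of the unit. FPKM values are not counts, so a count model was not the main test. Genes that reached an FPKM of 1 in 3 or more libraries of a comparison were fitted with limma 3.58.1 (lmFit, eBayes with trend; R 4.3.3) on log2(FPKM + 1), a scale that understates changes of low genes. Each fit held the 2 groups compared, taken from the labels. P values were adjusted by Benjamini-Hochberg over all genes tested, and the threshold was 0.05. Exact two-sided permutation tests over libraries used scipy 1.17.1 (Python 3.11.15), where 3 controls against 7 cannot go below p = 0.0083. Correlations were computed on log2(FPKM + 1) with permutation p values. The fit was tested on simulated data.

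The members and lists were chosen with earlier results of these data known. Named are all 10 members, redox genes with an adjusted p under 0.05 and the 2 most abundant genes of a described list, and the gene closest to each member by rho, the first of the 3 the rule allows. The annotation can share reads between near-identical copies, and the counting setting for strand is not given in the sources used here. Txnrd1 overlaps Eid3 on the same strand (mean 0.374 FPKM). Alternatives were a pseudocount of 0.1, no filter, equal totals, median-ratio and quantile scaling, all 17 libraries in 1 model, array weights, robust eBayes, a block for the replicate number, and leaving out single libraries. Voom on the recovered fragments, and the correlations with markers, were added after seeing the data.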

Additional observations from a re-analysis of the deposited data

Results flagged for a closer look

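Of 20 groups of 7 libraries examined (10 members in 2 exposed groups), 2 held a library far from the others, and chance marks about 1 in 20 groups. Gpx1 was 817 FPKM in NE replicate 6, with the nearest of the other NE libraries at 546 and the lowest at 514. NE replicate 6 also held the highest sum of neutrophil markers, 65335 FPKM, and was the highest or lowest library for 32.7% of genes. The part of either in the Gpx1 value was not tested. Cat was 27.2 FPKM in brimonidine replicate 2, with the nearest of the other brimonidine libraries at 31.7 and the highest at 34.2.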

How the results depend on the processing

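In brimonidine against NE no member and no other redox gene passed under any alternative. In NE against control no member passed except with array weights, which gave 2 (Cat and Gclc; 37.4% of all genes passed). In brimonidine against control the count of members, 1, became 3 with array weights (Sod2, Cat and Hmox1) and 0 with the replicate block, and ran from 0 (without control replicate 2) to 3 (Sod2, Sod3 and Hmox1, without control replicate 1) as each library was left out. Of all genes, 43.4%, 1.48%, 9.48% and 30.1% passed in these fits. The count of other redox genes in NE against control, 5, became 3 with equal totals, 18 with all 17 libraries in 1 model, 27 with array weights and 0 with the replicate block, and ran from 1 (without control replicate 2) to 26 (without control replicate 1). Of all genes, 10.1%, 27.1%, 37.4%, 0%, 6.74% and 24.3% passed in these fits. In brimonidine against control, 8 became 4 without a filter, 4 with equal totals, 22 with all libraries, 36 with array weights and 0 with the block, and ran from 3 (without brimonidine replicate 2 or 4) to 30 (without control replicate 1). Of all genes, 7.51%, 11.8%, 27.9%, 43.4%, 1.48%, 11.6% or 10.5%, and 30.1% passed. The cause was not tested.

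Labels give no meaning to the replicate numbers, and same-numbered libraries did not deviate together (correlations of -0.23 to 0.08, none best with its own number). With the block, Hmox1 in brimonidine against control had an adjusted p of 0.274, and over the alternatives it ran from 0.0136 to 0.274. With array weights the Hmox1 difference in brimonidine against control was 0.28 (limma adjusted p = 0.0243), beside 0.49 in the first fit. Voom on recovered fragments, chosen after seeing the data, called Hmox1 alone among the members (adjusted p = 0.0196).

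Signs turned only for differences that did not pass in the first analysis. In NE against control these were Sod2 0.039, Cat 0.043 and Gpx3 0.11 with the median ratio, Cat 0.24 with array weights, and Gpx1 -0.024 with quantile scaling. In brimonidine against NE they were Sod1 0.012 with quantile scaling and Nqo1 0.028 with array weights. In brimonidine against control they were Cat 0.075 and Gclc 0.089 with the median ratio, Cat 0.26, Gclc 0.087 and Gpx3 -0.11 with array weights, and Gpx3 -0.23 with quantile scaling. As each library was left out, the NE against control difference ran from -0.20 to 0.011 for Sod2, -0.47 to 0.15 for Sod3, -0.23 to 0.18 for Cat, -0.21 to 0.092 for Gpx3 and -0.019 to 0.17 for Gclc. Brimonidine against NE ran from -0.015 to 0.12 for Gpx1, -0.014 to 0.097 for Gpx3 and -0.083 to 0.037 for Nqo1. Brimonidine against control ran from -0.56 to 0.059 for Sod3, -0.18 to 0.22 for Cat, -0.17 to 0.13 for Gpx3 and -0.085 to 0.11 for Gclc. The median difference of all genes moved from -0.04 to 0.06 in NE against control with the median ratio and to 0.06 with quantile scaling, and from -0.03 to 0.06 and 0.07 in brimonidine against control. Calls as higher and lower went from 338 and 1909 to 731 and 1654, and to 947 and 1510, in NE against control, and from 553 and 1965 to 1050 and 1826, and to 1448 and 1608, in brimonidine against control.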
